A study of Mus musculus with 18 samples.

Results

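Transcripts of 10 enzymes of glycolysis were followed in isolated mouse brain endothelial cells: the hexokinases Hk1 and Hk2, the phosphofructokinases Pfkl and Pfkp, the bifunctional regulator Pfkfb3, and Gpi1, Aldoa, Pgk1, Pkm and Ldha. They were chosen by name, from hexokinase to lactate dehydrogenase, with earlier results of these data known. Each matched an Ensembl gene among the 57010 in the deposited table. All 10 passed the filter on low counts that left 17531 genes for testing. The 18 libraries fell into 4 groups, with 5 in hypoxia KO, 4 in hypoxia flox, 5 in normoxia KO and 4 in normoxia flox. All mice carried loxP-flanked alleles of Pdcd10 (Pdcd10 fl/fl), which encodes CCM3, a scaffold protein whose loss gives cerebral cavernous malformations, and the Aldh1l1-EGFP/Rpl10a transgene, which marks astrocyte ribosomes. The KO mice carried in addition Slco1c1-iCreERT2, a tamoxifen-activated Cre recombinase under a promoter of brain endothelium, which deletes Pdcd10 in those cells. A dose of 50 µg of 4-hydroxytamoxifen was injected into the stomach on postnatal day 1, and cells were taken on postnatal day 57, after 7 days at 12% oxygen (hypoxia) or at 21% oxygen (normoxia). The series description also names Cre carriers that were not injected as littermate controls, without saying whether any flox library came from them. The labels number the libraries of a group but do not say that each is a separate animal, so a p-value measures the spread between these libraries.

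Glycolysis splits glucose into pyruvate in the cytosol and yields ATP without oxygen, and lactate dehydrogenase turns the pyruvate into lactate so that the pathway can keep running. Endothelial cells are known to draw most of their ATP from it although blood brings them oxygen, and Pfkfb3, which makes the activator of phosphofructokinase, is known to set its rate when vessels sprout. Many genes of the pathway are textbook targets of hypoxia-inducible factor, a dimer that binds DNA at a short core, ACGTG or GCGTG.

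The targeted gene followed the labels. Pdcd10 had 5.6 to 8.1 RPKM (reads scaled to gene length and library size) in hypoxia KO against 13.2 to 22.6 RPKM in hypoxia flox, and 5.5 to 6.5 RPKM in normoxia KO against 10.5 to 16.2 RPKM in normoxia flox. The log2 fold change from the counts was -1.17 ± 0.14 (SE, adjusted p = 2.87e-05) in hypoxia and -1.08 ± 0.14 (adjusted p = 5.02e-05) in normoxia. Here and below, log2 fold changes and adjusted p-values come from edgeR's quasi-likelihood test of all 18 libraries, with Benjamini-Hochberg adjustment over the 17531 genes and a threshold of 0.05. Libraries held 17.9 to 31.2 M counts each. The endothelial markers Pecam1 (167.6 to 300.9 RPKM) and Cldn5 (938.4 to 1676.7 RPKM) were high in every library. A pair of normoxia libraries stood apart: the 7 neuron markers summed to 144 RPKM in normoxia KO 4 and 261 RPKM in normoxia flox 4, against 2.40 to 19.4 RPKM in the other libraries, and the 5 astrocyte markers to 87.3 and 160 RPKM, against 3.0 to 17.1 RPKM. The 4 neutrophil markers summed to 134 RPKM in hypoxia KO 4 and to at most 6.0 RPKM elsewhere. Smooth muscle markers (4 genes) were lower in KO, at 24.5 to 51.3 RPKM against 65.9 to 129 RPKM in hypoxia flox and 23.1 to 33.5 RPKM against 97.7 to 188 RPKM in normoxia flox. The 5 pericyte markers summed to 185 to 327 RPKM in hypoxia KO against 31.7 to 176 RPKM in hypoxia flox, and to 116 to 217 RPKM in normoxia KO against 61.3 to 226 RPKM in normoxia flox. Apart from leaving out libraries, the part of these cell types in the results was not tested. The RNA of each library comes from many cells, so fewer cells of a type and less RNA per cell cannot be told apart. The hypoxia groups also differed in sex markers: all 4 hypoxia flox libraries held Y-linked RNA, whereas 4 of 5 hypoxia KO libraries held Xist and no more than traces of Y-linked RNA.

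Per gene length, Pkm, Ldha and Aldoa were the most abundant of the 10 transcripts, with medians over the 18 libraries of 129.05, 110.75 and 100.95 RPKM. Their ranges (73.1 to 185.4, 65.3 to 138.9 and 68.1 to 165.2 RPKM) overlapped widely, so their order is not separated by the spread. Pgk1 (median 47.15 RPKM) and Gpi1 (44.5 RPKM) came next, also with overlapping ranges, followed by Hk1 (26.25 RPKM) and Pfkl (25.65 RPKM), and then by Pfkp (7.5 RPKM) and Pfkfb3 (7.45 RPKM). Hk2 was last, with a median of 0.1 RPKM and 3 to 44 reads per library. Hexokinase RNA in these cells was thus almost entirely that of Hk1.

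**Figure D1:**
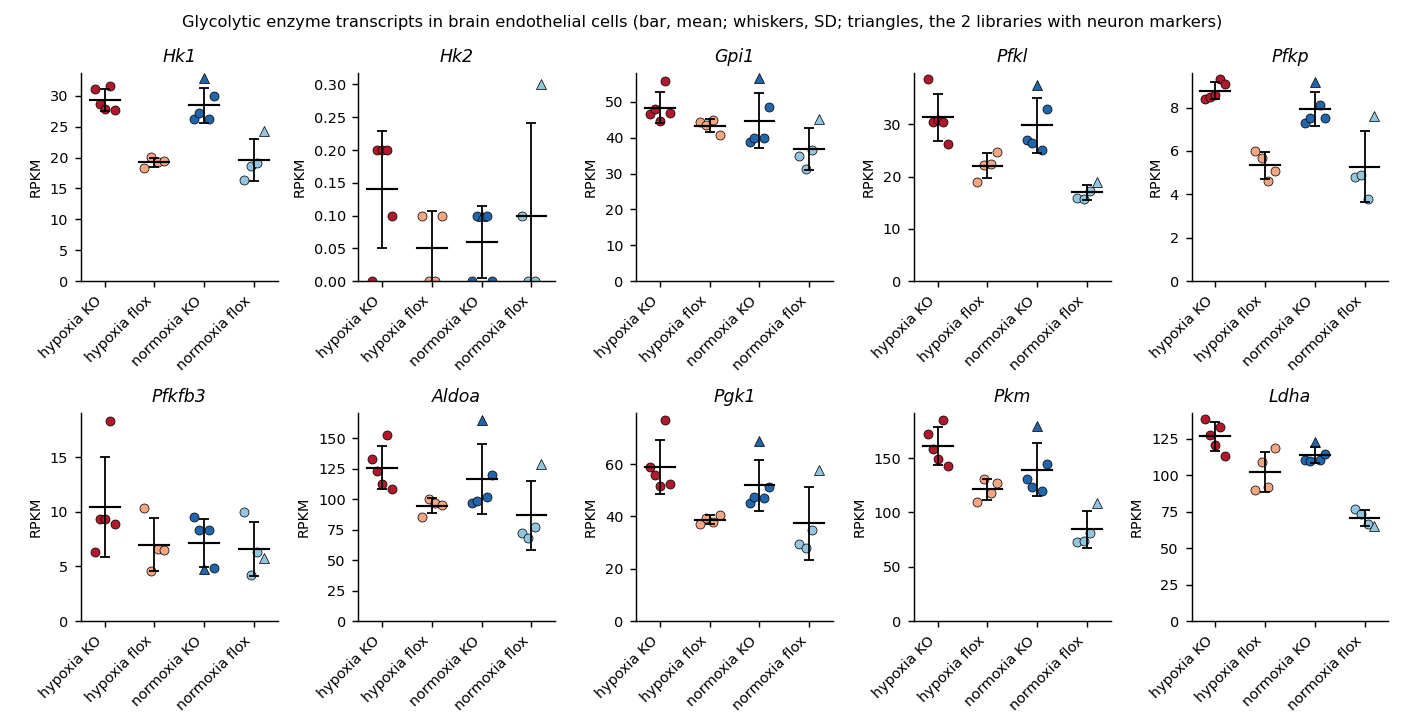
Deposited RPKM of the 10 glycolytic enzymes in each library, by group (bar, mean; whiskers, SD; triangles, normoxia KO 4 and normoxia flox 4, the libraries with neuron markers). The hypoxia KO points of Hk1, Pfkl, Pfkp, Aldoa, Pgk1 and Pkm all lie above the hypoxia flox points. The normoxia KO points of Hk1, Pfkl, Pkm and Ldha lie above the normoxia flox points. The share of all genes with groups apart was not recorded, so these genes cannot be set against it.

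RefSeq promoter windows, from 250 bases before to 50 bases after an annotated start (GRCm38.p6), were at hand for all 10 genes, 16 windows in all. They are described because 7 of the 10 genes rose in KO in hypoxia and 5 in normoxia. The hypoxia-inducible factor core ACGTG or GCGTG, searched on both strands with overlapping matches counted, was in at least 1 window of 9 of the 10 genes, against 46.7% of the 27025 genes in the table. ACGTG alone was in a window of 7 of the 10, against 21.8% of those genes. By window, either core was in 12 of the 16, against 43.8% of the 32851 windows, and ACGTG in 9, against 19.6%. Many genes of the pathway are known targets of the factor, so the choice of genes could itself give an excess. A match is a stretch of letters, not a binding site. The windows of Ldha (the start with more matches of its 2 annotated ones), Pgk1, Pfkl and Pfkp are printed, Pgk1, Pfkl and Pfkp because they were higher in KO and have a sole annotated start. All are 5′ to 3′ on the gene's own strand, and the capitals mark matches to either core.
Ldha, chr7:46845554-46845853, + strand: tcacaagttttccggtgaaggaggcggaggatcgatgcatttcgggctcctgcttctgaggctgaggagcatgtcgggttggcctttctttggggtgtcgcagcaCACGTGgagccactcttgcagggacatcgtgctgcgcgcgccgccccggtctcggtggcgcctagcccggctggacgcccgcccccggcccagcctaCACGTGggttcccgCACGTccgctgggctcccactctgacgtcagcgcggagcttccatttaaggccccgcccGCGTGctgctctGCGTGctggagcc
Pgk1, chrX:106186850-106187149, + strand: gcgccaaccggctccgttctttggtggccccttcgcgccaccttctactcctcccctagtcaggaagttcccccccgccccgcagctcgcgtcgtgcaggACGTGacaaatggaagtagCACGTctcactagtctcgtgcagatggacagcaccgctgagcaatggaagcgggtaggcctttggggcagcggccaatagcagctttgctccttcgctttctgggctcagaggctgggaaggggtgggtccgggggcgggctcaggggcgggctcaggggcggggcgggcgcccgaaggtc
Pfkl, chr10:78009758-78010057, − strand: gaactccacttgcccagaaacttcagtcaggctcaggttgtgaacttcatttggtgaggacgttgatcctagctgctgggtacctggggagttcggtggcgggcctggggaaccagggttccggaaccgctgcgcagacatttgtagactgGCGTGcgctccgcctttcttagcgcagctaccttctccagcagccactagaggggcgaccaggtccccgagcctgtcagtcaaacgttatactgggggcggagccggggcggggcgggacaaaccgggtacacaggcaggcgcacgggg
Pfkp, chr13:6648722-6649021, − strand: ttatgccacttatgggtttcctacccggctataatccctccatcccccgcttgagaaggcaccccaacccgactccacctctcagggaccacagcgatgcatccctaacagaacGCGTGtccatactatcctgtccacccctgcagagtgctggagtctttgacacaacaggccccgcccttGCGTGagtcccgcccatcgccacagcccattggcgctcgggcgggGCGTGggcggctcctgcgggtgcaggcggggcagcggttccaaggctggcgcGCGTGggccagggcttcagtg
The Ldha window held 7 matches, of which 5 were ACGTG; some lie on opposite strands of the same palindrome, CACGTG, and are counted on each. Pgk1 held 2 matches, both ACGTG. Pfkl held 1 match and Pfkp 4, and none of these was ACGTG. The windows of Gpi1 held 0 matches.

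Where Pdcd10 was deleted, glycolytic enzymes were called higher at either oxygen level. In hypoxia, 7 of the 10 (Hk1, Pfkl, Pfkp, Aldoa, Pgk1, Pkm and Ldha) rose in KO and 0 fell, where 11.4% of all genes tested were called higher and 11.0% lower. In normoxia, 5 of the 10 (Hk1, Pfkl, Pfkp, Pkm and Ldha) rose and 0 fell, against 9.54% of all genes called higher and 7.03% lower. The median log2 fold change of the 10 was 0.70 in hypoxia and 0.58 in normoxia, while the median of all genes was -0.00 and -0.02. The list was chosen with earlier results of these data known, so these values do not stand for glycolysis as a whole. The 14 other glycolytic enzymes tested had medians of 0.17 in hypoxia and -0.13 in normoxia. Their medians were 0.16 and 0.16 without the neuron-marker libraries, so the sign in normoxia depended on those libraries. Without the neuron-marker libraries 9 of the 10 passed in hypoxia and 8 in normoxia. The share of all genes called was not recorded for this fit or the other alternatives. Their counts therefore cannot be set against all genes. In normoxia, replicate numbers 1, 2 and 4 occur in both genotypes. Their libraries deviated together, but so did some libraries of unequal number, so the pairing is uncertain. With the number as a block 8 of the 10 passed in a fit of all 18 libraries, and in a fit of only those 6 normoxia libraries 3 of the 10 did, namely Pfkl, Pkm and Ldha. Markers of cycling cells (7 genes) moved with genotype in normoxia, summing to 14.6 to 28.0 RPKM in normoxia KO against 4.30 to 6.20 RPKM in normoxia flox, while in hypoxia the ranges overlapped (19.5 to 40.7 RPKM in KO and 35.4 to 50.9 RPKM in flox); their part in the normoxia calls was not tested. With the sex signal as a covariate 7 of the 10 passed in hypoxia, where Aldoa was lost (0.66, adjusted p = 0.0605) and Pfkfb3 gained (1.31, adjusted p = 0.0104). In hypoxia only hypoxia KO 4 had a sex signal unlike the rest of its genotype. It is also the library with neutrophil markers and the highest Pfkfb3. Sex and genotype are thus largely confounded in hypoxia, and this fit cannot fully separate them.

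**Figure D2:**
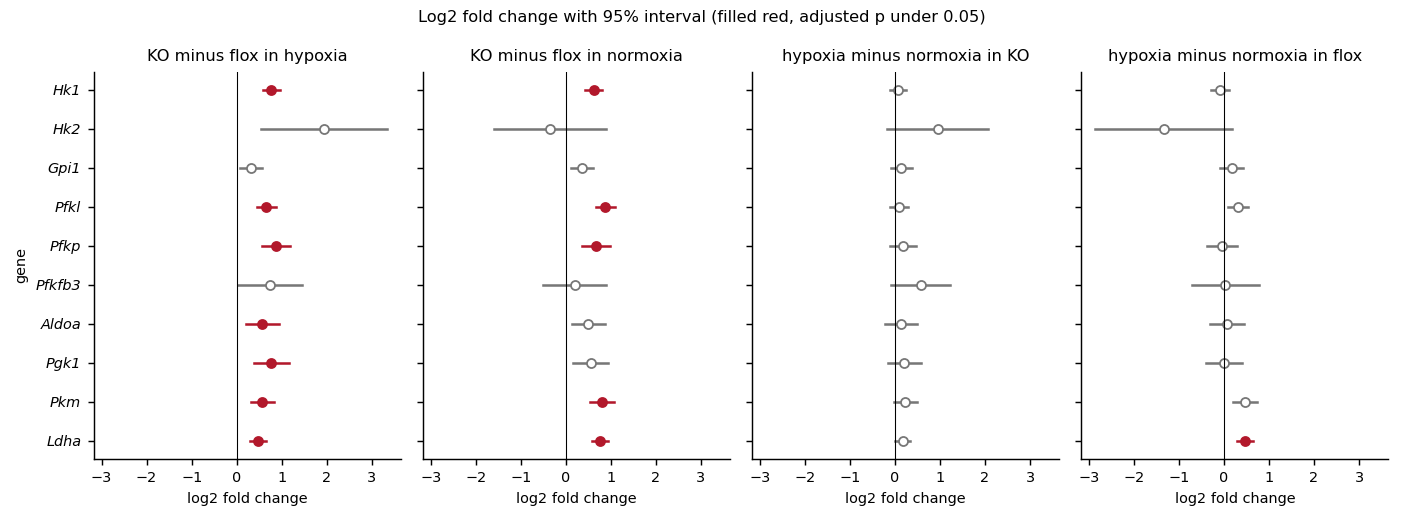
Log2 fold change and 95% interval of each enzyme in the 4 comparisons (filled red, adjusted p under 0.05). In the panels of KO minus flox, 7 genes in hypoxia and 5 in normoxia are filled and all of these lie above 0; in the oxygen panels Ldha in flox is the only filled point.

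Hexokinase traps glucose in the cell as glucose 6-phosphate. Hk1 (ENSMUSG00000037012), the form of most tissues, had 31.0, 28.6, 27.9, 31.5 and 27.7 RPKM in hypoxia KO libraries 1 to 5, against 18.3, 20.1, 19.2 and 19.4 RPKM in hypoxia flox libraries 2 to 5. It had 26.2, 27.2, 32.8, 26.3 and 29.9 RPKM in normoxia KO libraries 1, 2, 4, 5 and 6, against 16.4, 18.6, 19.1 and 24.3 RPKM in normoxia flox libraries 1 to 4. Every KO library was above every flox library at the same oxygen level, and the highest flox value was that of normoxia flox 4. The log2 fold change was 0.77 ± 0.10 in hypoxia (adjusted p = 4.78e-05) and 0.62 ± 0.10 in normoxia (adjusted p = 2.55e-04). In the 6 paired normoxia libraries alone, Hk1 was at 0.58 with an adjusted p of 0.0602.

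Hk2 (ENSMUSG00000000628), the inducible form known from muscle and tumours, was barely detected. Its reads numbered 5, 22, 23, 33 and 16 in the hypoxia KO libraries, against 7, 4, 3 and 8 in hypoxia flox. They numbered 6, 9, 20, 22 and 6 in normoxia KO, against 6, 5, 4 and 44 in normoxia flox. The 44 reads came from normoxia flox 4, a library with neuron markers. By reads, all but 1 of the hypoxia KO libraries were above every hypoxia flox library. By RPKM, hypoxia KO 5 also equalled hypoxia flox 2 and 5, at 0.1 RPKM. The log2 fold change of 1.94 ± 0.71 in hypoxia did not pass (adjusted p = 0.0625), nor did that of -0.35 ± 0.64 in normoxia (adjusted p = 0.762). Without the neuron-marker libraries the values were 1.92 ± 0.50 in hypoxia (adjusted p = 0.00960) and 0.81 ± 0.65 in normoxia (adjusted p = 0.411); without hypoxia KO 1 that in hypoxia was 2.17 (adjusted p = 0.0305).

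Phosphofructokinase commits sugar to glycolysis, and its subunits are named for liver (Pfkl), platelet (Pfkp) and muscle (Pfkm). Pfkl (ENSMUSG00000020277) had 38.6, 30.4, 30.9, 30.4 and 26.3 RPKM in hypoxia KO, against 19.0, 22.2, 22.4 and 24.7 RPKM in hypoxia flox. In normoxia it had 27.0, 26.5, 37.5, 25.0 and 33.0 RPKM in KO, against 16.0, 15.8, 17.3 and 18.9 RPKM in flox. The genotypes did not overlap at either oxygen level. Its log2 fold change was 0.66 ± 0.11 in hypoxia (adjusted p = 6.21e-04) and 0.88 ± 0.11 in normoxia (adjusted p = 4.20e-05), and both calls held under each of the 22 alternatives run.

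Pfkp (ENSMUSG00000021196) had 8.4, 8.5, 8.6, 9.3 and 9.1 RPKM in hypoxia KO, against 6.0, 5.7, 4.6 and 5.1 RPKM in hypoxia flox. In normoxia it had 7.3, 7.5, 9.2, 8.1 and 7.5 RPKM in KO, against 4.8, 4.9, 3.8 and 7.6 RPKM in flox. Only normoxia flox 4 reached the KO range. On the log2 scale KO minus flox was 0.87 ± 0.16 in hypoxia (adjusted p = 0.00113) and 0.66 ± 0.16 in normoxia (adjusted p = 0.00872). The normoxia call was lost when only the 2 groups were fitted (adjusted p = 0.0615) and in the paired libraries (0.53, adjusted p = 0.103).

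Pfkfb3 (ENSMUSG00000026773) makes and degrades fructose 2,6-bisphosphate, the activator of phosphofructokinase. It had 6.3, 9.3, 9.3, 18.3 and 8.9 RPKM in hypoxia KO, against 10.3, 4.6, 6.6 and 6.5 RPKM in hypoxia flox. In normoxia it had 9.5, 8.3, 4.8, 8.3 and 4.9 RPKM in KO, against 10, 4.2, 6.3 and 5.8 RPKM in flox. The groups overlapped throughout, and the highest value belonged to hypoxia KO 4, the library with neutrophil markers. The log2 fold changes of 0.74 ± 0.36 in hypoxia (adjusted p = 0.160) and 0.20 ± 0.36 in normoxia (adjusted p = 0.755) did not pass. The other genes that set the level of this activator, Pfkfb1, Pfkfb2, Pfkfb4 and Tigar, gave 0 calls of 4 in each comparison in edgeR with all libraries; at an unadjusted p under 0.05 the counts were 2 in KO minus flox in hypoxia, 0 in normoxia, 0 and 1 between oxygen levels in KO and in flox, and DESeq2 called 1 in KO minus flox in hypoxia.

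In the middle of the pathway, Gpi1 (ENSMUSG00000036427) turns glucose 6-phosphate into fructose 6-phosphate, Aldoa (ENSMUSG00000030695) cleaves the sugar into trioses, and Pgk1 (ENSMUSG00000062070) makes the first ATP. Gpi1 had 44.7 to 55.7 RPKM in hypoxia KO, against 40.7 to 45 RPKM in hypoxia flox, and 38.8 to 56.7 RPKM in normoxia KO, against 31.4 to 45.1 RPKM in normoxia flox. Its log2 fold changes of 0.32 ± 0.12 in hypoxia (adjusted p = 0.0800) and 0.35 ± 0.12 in normoxia (adjusted p = 0.0653) did not pass.

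Aldoa had 132.6, 123.5, 112.6, 152.8 and 108.0 RPKM in hypoxia KO, against 85.8, 100.4, 96.7 and 95.6 RPKM in hypoxia flox. Normoxia gave 97.2, 98.7, 165.2, 101.5 and 120.1 RPKM in KO, against 72.1, 68.1, 77.6 and 129.2 RPKM in flox. The hypoxia groups were apart, and in normoxia the highest value of each genotype came from its neuron-marker library. In KO minus flox the log2 fold change was 0.57 ± 0.19 in hypoxia (adjusted p = 0.0392) and 0.50 ± 0.19 in normoxia (adjusted p = 0.0859). The hypoxia call was fragile: leaving out hypoxia KO 2 or 4, or any of the 4 hypoxia flox libraries, left adjusted p-values of 0.0625 to 0.107. Without the neuron-marker libraries the value was 0.56 ± 0.10 in hypoxia (adjusted p = 6.81e-04) and 0.57 ± 0.11 in normoxia (adjusted p = 0.00183).

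Pgk1 had 58.9, 55.7, 51.5, 76.8 and 52.3 RPKM in hypoxia KO, against 37.0, 39.6, 38 and 40.7 RPKM in hypoxia flox. Normoxia gave 45.2, 47.4, 69.0, 46.9 and 51.3 RPKM in KO, against 29.3, 27.8, 34.7 and 57.7 RPKM in flox. Again only normoxia flox 4 lay within the KO range. The log2 fold change was 0.77 ± 0.20 in hypoxia (adjusted p = 0.0106) and 0.55 ± 0.19 in normoxia (adjusted p = 0.0654). Without normoxia flox 4 the normoxia value was 0.82 (adjusted p = 9.21e-04). Pgk1 has 2 processed pseudogenes that match its coding transcript at 100% identity in the GENCODE M21 transcripts, Gm5537 and Pgk1-rs7, listed with 8.742% and 8.960% as many reads as Pgk1. Both were chosen by sequence, outside the rule for named genes, and both rose in KO in hypoxia, by 0.81 ± 0.20 and 0.81 ± 0.19 (adjusted p = 0.00823 and 0.00739). Reads could be split among them by the counting, so the level of Pgk1 is less certain than the others; the nearest copies of Gpi1 (Gm1840, 98.7% identity) and Pkm (Gm6560, 98.4%) were listed with 0.997% and 1.646% as many reads. Hk1, Pfkp, Gpi1 and Aldoa overlap other annotated genes, and the strand setting of the counting is not given in the sources used here.

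Pyruvate kinase makes pyruvate and the second ATP. Pkm (ENSMUSG00000032294) had 172.5, 157.9, 148.9, 185.4 and 142.3 RPKM in hypoxia KO, against 109.8, 130.9, 117.5 and 127.2 RPKM in hypoxia flox. The normoxia values were 131.0, 123.3, 179.2, 119.4 and 144.1 RPKM in KO, against 73.1, 73.9, 81.3 and 109.0 RPKM in flox. The genotypes were apart at either oxygen level. The log2 fold change was 0.57 ± 0.13 in hypoxia (adjusted p = 0.00636) and 0.80 ± 0.13 in normoxia (adjusted p = 5.33e-04), and each held in all 22 alternatives. The counts are per gene, so the M1 and M2 splice forms of Pkm are summed.

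Lactate dehydrogenase A converts pyruvate into lactate. Ldha (ENSMUSG00000063229) had 138.9, 127.6, 120.6, 133.2 and 113.2 RPKM in hypoxia KO, against 89.8, 109.2, 92 and 118.7 RPKM in hypoxia flox. The normoxia values were 110.8, 109.6, 123.1, 110.7 and 114.9 RPKM in KO, against 77.2, 73.5, 66.6 and 65.3 RPKM in flox. The normoxia groups were far apart, while hypoxia flox 5 lay within the hypoxia KO range. KO minus flox on the log2 scale was 0.47 ± 0.09 in hypoxia (adjusted p = 0.00143) and 0.76 ± 0.09 in normoxia (adjusted p = 1.61e-05). Unlike the other abundant enzymes, Ldha had its lowest RPKM of all in normoxia flox 4.

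The low oxygen itself was accompanied by few calls among these genes. In KO, 0 of the 10 passed the edgeR test between hypoxia and normoxia (0 at an unadjusted p under 0.05, and 0 by DESeq2 and by limma), where 0.713% of all genes were called higher and 0.770% lower; all 10 fold changes were above 0, with a median of 0.17 against -0.03 for all genes. In flox, Ldha alone passed, 1 of 10 higher and 0 lower, where 2.34% of all genes were called higher and 0.462% lower; the median of the 10 was 0.05 against -0.03. Ldha averaged 102 ± 13.9 RPKM in hypoxia flox and 70.7 ± 5.66 RPKM in normoxia flox (SD, n = 4 each). Its 4 hypoxia flox libraries all lay above the normoxia flox libraries, with a log2 fold change of 0.47 ± 0.09 (adjusted p = 0.00692). In KO, Ldha averaged 127 ± 10.1 RPKM in hypoxia and 114 ± 5.57 RPKM in normoxia (SD, n = 5 each), a log2 fold change of 0.17 ± 0.08 (adjusted p = 0.352). The Ldha call in flox did not hold when only the 2 flox groups were fitted (adjusted p = 0.0967) or without normoxia flox 3 and 4 and normoxia KO 4, which held both Xist and Y-linked RNA (0.35, adjusted p = 0.113).

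The other enzyme nearest to a call was Pkm, which averaged 121 ± 9.55 RPKM in hypoxia flox and 84.3 ± 16.9 RPKM in normoxia flox (SD, n = 4 each), a log2 fold change of 0.46 ± 0.14 (adjusted p = 0.102). By RPKM its hypoxia flox libraries were all above the normoxia flox libraries, but barely (109.8 RPKM at the lowest against 109.0 RPKM at the highest). On the TMM-scaled counts the 2 groups overlapped. Without the neuron-marker libraries Pkm passed, at 0.61 ± 0.09 (adjusted p = 0.00107), and so did Pfkl, at 0.37 ± 0.10 (adjusted p = 0.0449). In KO without these libraries, Pkm passed at 0.35 ± 0.08 (adjusted p = 0.0401). Hk1 averaged 29.3 ± 1.78 RPKM in hypoxia KO and 28.5 ± 2.84 RPKM in normoxia KO (SD, n = 5 each), and 19.2 ± 0.742 RPKM in hypoxia flox and 19.6 ± 3.35 RPKM in normoxia flox (SD, n = 4 each). Its log2 fold changes with oxygen were 0.06 ± 0.09 in KO (adjusted p = 0.789) and -0.08 ± 0.10 in flox (adjusted p = 0.769). The cycling markers also differed with oxygen in flox (35.4 to 50.9 RPKM in hypoxia flox against 4.30 to 6.20 RPKM in normoxia flox). So did the 5 erythroid markers, which summed to 5196 to 6906 RPKM in hypoxia flox against 1935 to 3884 RPKM in normoxia flox, and overlapped in KO (3639 to 10412 RPKM in hypoxia KO and 1581 to 6433 RPKM in normoxia KO). The part of either marker list in the Ldha and Pkm values was not tested.

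**Figure D3:**
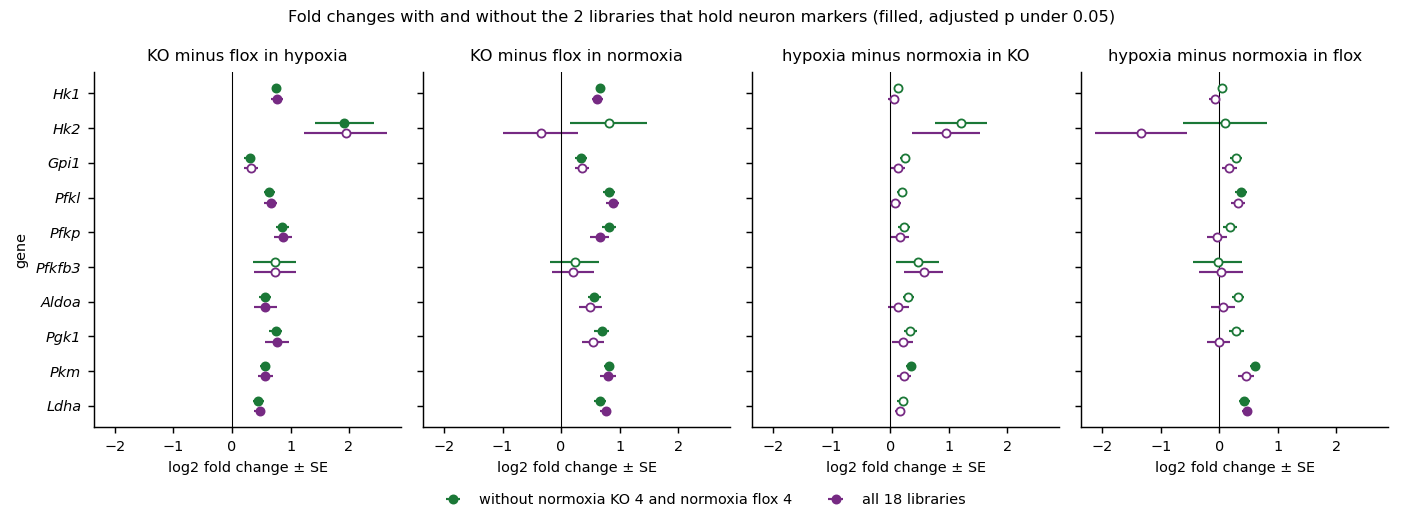
Log2 fold change ± SE of each enzyme with and without normoxia KO 4 and normoxia flox 4 (filled, adjusted p under 0.05). Without them 9 enzymes pass in KO minus flox in hypoxia and 8 in normoxia, Pkm passes between the oxygen levels in KO, and Pfkl, Pkm and Ldha pass in flox.

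Whether the genotype difference depended on oxygen was tested by the interaction of the 2 factors, where 0.445% of all genes were called in either direction. Of the 10 enzymes 0 passed in edgeR, 2 (Ldha and Hk2) at an unadjusted p under 0.05, and 0 in any alternative run, DESeq2 and limma included. The interaction was -0.30 ± 0.12 for Ldha (adjusted p = 0.776), -0.23 ± 0.19 for Pkm, -0.22 ± 0.16 for Pfkl and 0.15 ± 0.13 for Hk1 (adjusted p = 0.993). A smaller genotype difference in hypoxia than in normoxia was therefore not shown for Ldha, Pkm or Pfkl.

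The enzymes with several gene forms were compared as shares of summed RPKM, tested between genotypes by exact two-sided permutation of the libraries, whose smallest p is 0.00794, with adjustment over the 6 tests. Pfkl made up 56.8 ± 2.62% of phosphofructokinase RNA in hypoxia KO and 50.7 ± 1.99% in hypoxia flox, and 54.4 ± 4.36% in normoxia KO and 41.9 ± 9.94% in normoxia flox (SD, n = 5 KO and 4 flox at each oxygen level). Pfkm made up 27.0 ± 0.797% in hypoxia KO and 36.9 ± 1.18% in hypoxia flox, and 30.9 ± 6.09% in normoxia KO and 45.6 ± 11.3% in normoxia flox. The Pfkl and Pfkm shares were not tested and are given as a description. In hypoxia the genotypes did not overlap in either of these shares, and in normoxia they overlapped in both. The platelet form Pfkp made up 16.1 ± 1.95% in hypoxia KO and 12.4 ± 2.16% in hypoxia flox, a difference of 3.73 points (exact permutation p = 0.0476, adjusted p = 0.286). It made up 14.7 ± 2.47% in normoxia KO and 12.5 ± 2.29% in normoxia flox (exact permutation p = 0.190, adjusted p = 0.571). The muscle form Pfkm itself was at 0.04 ± 0.34 in hypoxia (adjusted p = 0.953) and -0.19 ± 0.33 in normoxia (adjusted p = 0.751) on the log2 scale, and reached 33.3 RPKM in normoxia KO 4 and 43.2 RPKM in normoxia flox 4 against 12.1 to 17.6 RPKM elsewhere.

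Ldha made up 91.6 ± 1.24% of Ldha and Ldhb RNA in hypoxia KO and 91.2 ± 0.580% in hypoxia flox (SD, n = 5 and 4; exact permutation p = 0.587, adjusted p = 0.587). It made up 85.5 ± 8.01% in normoxia KO and 76.7 ± 20.6% in normoxia flox (SD, n = 5 and 4; exact permutation p = 0.468, adjusted p = 0.587). The wide spread in normoxia came from the neuron-marker libraries, with 71.2% in normoxia KO 4 and 45.8% in normoxia flox 4. Ldhb, which encodes the heart form of the enzyme, had 49.8 and 77.2 RPKM in these libraries against 8.3 to 14.6 RPKM elsewhere. Hk2 made up 0.479 ± 0.303% of hexokinase RNA in hypoxia KO and 0.264 ± 0.305% in hypoxia flox (exact permutation p = 0.310, adjusted p = 0.587), and 0.210 ± 0.194% in normoxia KO and 0.456 ± 0.583% in normoxia flox (exact permutation p = 0.500, adjusted p = 0.587). None of the 6 tests, of the Hk2, Pfkp and Ldha shares, passed after adjustment. The Pfkl and Pfkm shares were not among them.

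**Figure D4:**
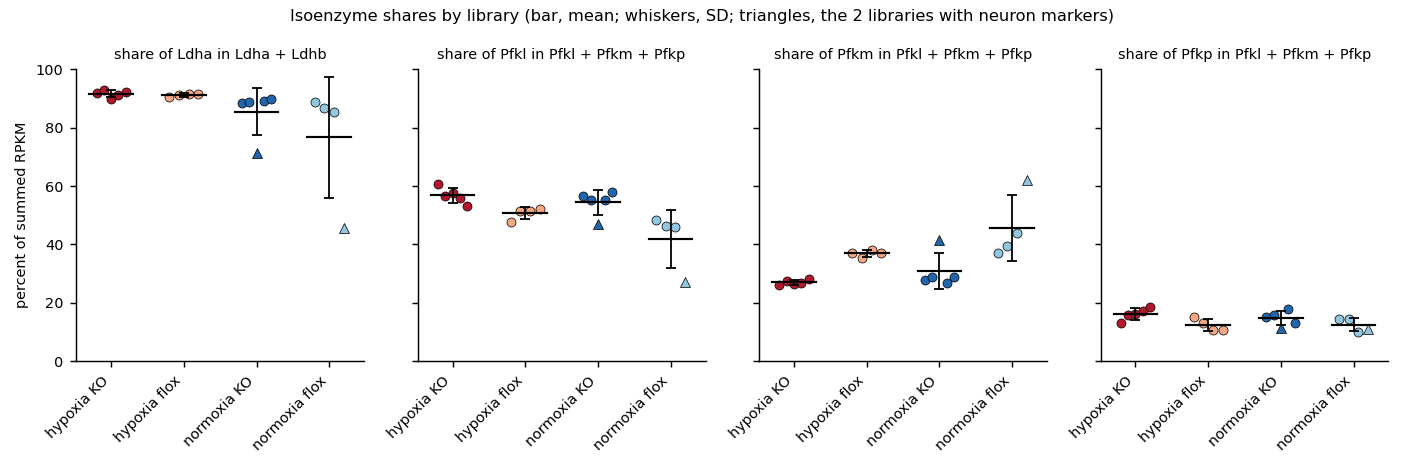
Share of each gene form in the summed RPKM of its enzyme, per library and group (bar, mean; whiskers, SD; triangles, normoxia KO 4 and normoxia flox 4). The triangles hold the lowest Ldha shares, 71.2% and 45.8%, and the highest Pfkm shares, 41.6% and 62.0%.

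Beyond the 10 enzymes, 18 genes chosen by the rule for named genes, Pdcd10 included, were called in KO minus flox in normoxia. In the fit of the 6 paired normoxia libraries alone 7 of them were called (Pdcd10, Tpi1, Slc16a1, Pdk1, Pygl, Egln3 and Epas1). The other 11 kept their direction but were not called there, namely Slc16a3 (adjusted p = 0.0506), Hif1a (0.0502), Mxi1 (0.0710), Gapdh (0.0866), Bsg (0.0882), Slc2a4 (0.0896), Eno3 (0.111), Pgm2 (0.146), Gbe1 (0.112), Pgd (0.206) and Ugp2 (0.348).

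Of the 21 further glycolytic enzyme genes, 14 passed the filter on low counts and were tested. In KO against flox in hypoxia 3 rose and 2 fell, where 11.4% of all genes were called higher and 11.0% lower. In normoxia 2 rose and 1 fell, against 9.54% of all genes called higher and 7.03% lower. The medians in hypoxia and normoxia were 0.17 and -0.13 with all libraries, and 0.16 and 0.16 without the neuron-marker libraries. Tpi1, which interconverts the trioses, had 67.7 to 90.4 RPKM in hypoxia KO against 45.4 to 53.9 RPKM in hypoxia flox, and 64.2 to 97.9 RPKM in normoxia KO against 34.3 to 59.3 RPKM in normoxia flox. It rose by 0.84 ± 0.16 in hypoxia (adjusted p = 0.00148) and 0.92 ± 0.16 in normoxia (adjusted p = 6.90e-04) on the log2 scale. Gapdh, the next enzyme and a common loading control, rose by 0.82 ± 0.19 in hypoxia (adjusted p = 0.00552) and 0.68 ± 0.19 in normoxia (adjusted p = 0.0188); the normoxia call was lost without normoxia flox 1, 2 or 3 (adjusted p = 0.0526 to 0.0762). Pgam1 rose in hypoxia (0.62 ± 0.19, adjusted p = 0.0246). Eno3, the muscle enolase, fell by 0.82 ± 0.13 in hypoxia (adjusted p = 3.33e-04) and 0.71 ± 0.13 in normoxia (adjusted p = 0.00101), at 2.6 to 2.9 RPKM in hypoxia KO against 4.4 to 6.6 RPKM in hypoxia flox. Eno1, named outside the rule, was the most abundant enolase, with group means of 48.2 to 55.5 RPKM. It did not pass in hypoxia (0.24 ± 0.17, adjusted p = 0.335) or normoxia (0.17 ± 0.17, adjusted p = 0.564). Gapdhs, the sperm form of Gapdh, was at most 0.9 RPKM and fell in hypoxia (-1.90 ± 0.37, adjusted p = 0.00194). Between oxygen levels 0 of the 14 passed in edgeR (2 in KO and 3 in flox at an unadjusted p under 0.05; 0 by DESeq2 and limma).

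Glucose enters through Slc2a1, the main glucose carrier of the blood-brain barrier, and lactate leaves or enters through Slc16a1 and Slc16a3. Among 12 transport genes, 2 rose and 1 fell in KO in hypoxia, where 11.4% of all genes were called higher and 11.0% lower. In normoxia 3 rose and 1 fell, against 9.54% of all genes called higher and 7.03% lower. Slc2a1 had 1090.9 to 1532.7 RPKM in hypoxia KO against 1063.3 to 1382.2 RPKM in hypoxia flox, with a log2 fold change of 0.25 ± 0.14 (adjusted p = 0.214), and 0.23 ± 0.14 in normoxia (adjusted p = 0.285). The lactate exporter Slc16a3 had 6.6 to 14.7 RPKM in hypoxia KO against 0.8 to 1.5 RPKM in hypoxia flox, and rose by 3.24 ± 0.35 (adjusted p = 1.16e-05). In normoxia it had 5.2 to 7.0 RPKM in KO against 0.5 to 1.4 RPKM in flox, and rose by 3.09 ± 0.35 (adjusted p = 1.38e-05). Slc16a1 rose by 0.92 ± 0.17 in KO in normoxia (adjusted p = 0.00128) and stood at the threshold in hypoxia (0.49 ± 0.17, adjusted p = 0.0474), which was lost without any 1 of 7 of the 9 hypoxia libraries (hypoxia flox 2, 3 and 4 and hypoxia KO 1, 2, 3 and 5; adjusted p = 0.0575 to 0.158). It also rose with hypoxia in flox (0.94 ± 0.18, adjusted p = 0.00573), a call lost when only the 2 flox groups were fitted (adjusted p = 0.0605) and without the 3 libraries that hold Xist beside Y-linked RNA (adjusted p = 0.0563). Slc2a4, the insulin-responsive carrier, was at most 1.2 RPKM and fell in KO in normoxia (-1.47 ± 0.28, adjusted p = 0.00169) and in hypoxia (-0.86 ± 0.29, adjusted p = 0.0414). The hypoxia call was lost without hypoxia flox 2 or 3 or hypoxia KO 2, 3, 4 or 5 (adjusted p = 0.0584 to 0.158), when only the 2 groups were fitted (adjusted p = 0.0551) and with the sex covariate (adjusted p = 0.113). Bsg, the chaperone of the lactate carriers, rose in normoxia (0.78 ± 0.14, adjusted p = 7.97e-04).

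At the branch to mitochondria, Pdk1, which blocks pyruvate dehydrogenase, rose in KO in hypoxia (0.80 ± 0.11, adjusted p = 8.49e-05) and normoxia (1.12 ± 0.11, adjusted p = 2.55e-06), and with hypoxia in flox (0.56 ± 0.11, adjusted p = 0.00759). The oxygen call was lost when only the 2 flox groups were fitted (adjusted p = 0.104) and with the replicate number as a block in a fit of all libraries (adjusted p = 0.0600). Its 14-gene list counted 2 higher and 0 lower in hypoxia, against 11.4% of all genes called higher and 11.0% lower. In normoxia it counted 1 higher and 0 lower, against 9.54% and 7.03%. The other gene called, Pdp1, was at 0.57 ± 0.20 in hypoxia (adjusted p = 0.0475). That call was lost without any 1 of the 9 hypoxia libraries (adjusted p = 0.0585 to 0.116). Of 10 glycogen genes, 5 rose at either oxygen level and 0 fell, with medians of 0.40 in hypoxia and 0.35 in normoxia, where 11.4% and 9.54% of all genes were called higher. By limma on RPKM 3 were called in hypoxia and 2 in normoxia, and in normoxia Pgm2, Gbe1 (the branching enzyme) and Ugp2 (which makes UDP-glucose) each lost their call in 4 or more alternatives. Pygl, liver glycogen phosphorylase, rose by 2.07 ± 0.28 in hypoxia (adjusted p = 1.11e-04) and 1.70 ± 0.27 in normoxia (adjusted p = 3.80e-04), although its level was at most 1.4 RPKM. In the pentose phosphate list, 0 of 8 passed in hypoxia in edgeR (1 at an unadjusted p under 0.05; 0 by DESeq2 and limma), and Pgd alone in normoxia (0.32 ± 0.08, adjusted p = 0.0128). Pgd did not pass by limma (adjusted p = 0.118), with no filter on low counts (0.0522), without the neuron-marker libraries (0.0792) or without the 3 libraries that hold Xist beside Y-linked RNA (0.133). Of 5 gluconeogenesis genes 2 were tested and 0 passed in edgeR (0 at an unadjusted p under 0.05; 0 by DESeq2 and limma).

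Among 15 regulators of glycolytic transcription, 5 rose and 1 fell in KO in hypoxia, against 11.4% of all genes called higher and 11.0% lower. In normoxia 4 rose and 2 fell, against 9.54% of all genes called higher and 7.03% lower. Hif1a, the oxygen-sensitive subunit of hypoxia-inducible factor, had 46.1 to 54.2 RPKM in hypoxia KO against 24.4 to 32.5 RPKM in hypoxia flox (1.04 ± 0.12, adjusted p = 2.53e-05), and 30.0 to 48.3 RPKM in normoxia KO against 19.6 to 21.4 RPKM in normoxia flox (1.09 ± 0.12, adjusted p = 1.20e-05). Epas1, which encodes the related HIF-2α subunit, fell by 0.55 ± 0.13 in hypoxia (adjusted p = 0.00631) and 0.81 ± 0.13 in normoxia (adjusted p = 3.07e-04). Egln3, a prolyl hydroxylase that is itself a target of the factor, had 10.6 to 13.9 RPKM in hypoxia KO against 0.5 to 0.9 RPKM in hypoxia flox, and 9.7 to 13.2 RPKM in normoxia KO against 0.1 to 1.8 RPKM in normoxia flox. Its log2 fold change was 4.37 ± 0.49 in hypoxia (adjusted p = 2.17e-05) and 4.17 ± 0.49 in normoxia (adjusted p = 2.21e-05). Mxi1, a Myc antagonist, rose by 0.99 ± 0.10 in hypoxia (adjusted p = 5.46e-06) and 0.80 ± 0.10 in normoxia (adjusted p = 2.72e-05). Klf2, a flow-responsive factor of endothelium, rose in hypoxia (1.41 ± 0.35, adjusted p = 0.00947) and did not pass in normoxia (0.89 ± 0.35, adjusted p = 0.0922). Between the oxygen levels 0 of the 15 passed in either genotype in edgeR with all libraries (4 in KO and 6 in flox at an unadjusted p under 0.05); DESeq2 and limma each called 1 in flox and 0 in KO.

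**Figure D5:**
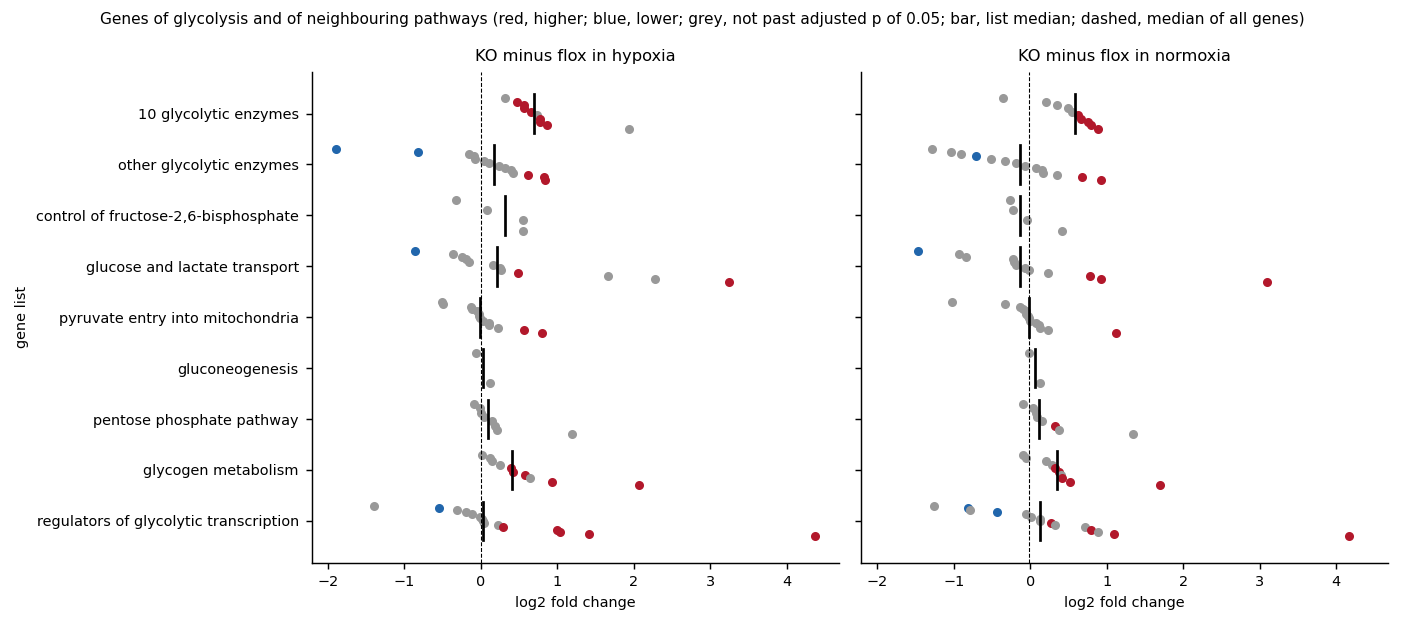
Log2 fold change in KO minus flox of the tested genes of each list (red, higher; blue, lower; grey, not past the adjusted p of 0.05; bar, list median; dashed line, median of all genes). With all 18 libraries, the bar of the 10 enzymes lies at 0.70 in hypoxia and 0.58 in normoxia. That of the other glycolytic enzymes lies at 0.17 and -0.13, and without the neuron-marker libraries their medians were 0.16 and 0.16.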

How the data were processed

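RNA of isolated brain endothelial cells was sequenced in 18 mouse libraries made with a stranded mRNA kit from RNA of integrity number above 8.0, per the labels' protocols. The deposited counts are whole reads per Ensembl gene, made by the authors with HISAT2 on GRCm39, per the submitters' processing notes, which also name edgeR. The counter, annotation release, strand setting and versions are not given in the sources used here. The deposited RPKM carry 1 decimal and, per gene, follow the share of the library's column total. Of the 57010 identifiers 91.3% had a symbol in the gene name table at hand; 0 columns were unmapped. Aldoa had 2 identifiers, of which the one with more reads was used.

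Counts were tested in R 4.3.3 with edgeR 4.0.16 (filterByExpr, TMM scaling, robust quasi-likelihood fit of 4 groups, F test), with Benjamini-Hochberg adjustment within each comparison over 17531 genes and a threshold of 0.05. The standard error of a log2 fold change is its size over the root of its F value. The fit was tested on simulated data. RPKM served for levels, since they are per length, and for the isoenzyme shares, which were compared by exact permutation of libraries. Depth, 17.9 to 31.2 M reads per library, leaves the 3 to 44 reads of Hk2 with wide counting error. Overlaps in the text are those of RPKM unless reads or scaled counts are named. The share of all genes whose groups do not overlap was not recorded.

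The alternatives were RLE size factors, the filter on low counts left off or raised to 1 CPM in 4 libraries, DESeq2 1.42.0, only the groups compared, limma-trend 3.58.1 on log2(RPKM + 0.1), the replicate block, the sex signal or the immediate early genes as a covariate, and leaving out the neuron-marker libraries or each library. Fits without the 3 libraries that hold Xist beside Y-linked RNA, and without hypoxia KO 4 with its neutrophil markers, were chosen after seeing the data.

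Deviations from the group means were correlated between libraries of equal number. In normoxia r was 0.579, 0.294 and 0.847 for numbers 1, 2 and 4. These numbers were taken to pair the libraries, from the data and not from the labels. Libraries of unequal number also correlated in normoxia, up to 0.707 (normoxia flox 3 with normoxia KO 6). Normoxia flox 2 correlated more with normoxia KO 6 (0.392) than with normoxia KO 2, and number 4 joins the libraries with neuron markers. The pairing is therefore uncertain. The pairs of the other comparisons gave -0.525 to 0.402.

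The members and lists were chosen with earlier results of these data known. The genes named are all members, Pdcd10, Slc2a1, Slc16a1, Slc16a3, Pdk1, Hif1a, Ldhb, Pfkm and Klf2, and up to 4 genes per list and comparison with the smallest adjusted p past the threshold; the text prints a selection. Promoter windows were RefSeq's on GRCm38.p6, and copies of the members were found by aligning GENCODE M21 transcripts (minimap2 2.31-r1302, at least 90% identity over at least 30% of the transcript). Python 3.11.15, pandas 2.3.3 and matplotlib 3.10.9 were used.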

Additional observations from a re-analysis of the deposited data

Results flagged for a closer look

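Among 52 sets of values screened (each enzyme and isoenzyme share in each group of 4 or 5 libraries), 5 held a library far from the others by Dixon's test at 95%; chance gives about 1 in 20. Pfkfb3 stood at 18.3 RPKM in hypoxia KO 4, the library with neutrophil markers, against 6.3 to 9.3 RPKM in the other hypoxia KO libraries. Aldoa stood at 129.2 RPKM in normoxia flox 4, against 68.1 to 77.6 RPKM in the other normoxia flox libraries. Pgk1 stood at 69.0 RPKM in normoxia KO 4, against 45.2 to 51.3 RPKM in the other normoxia KO libraries. The share of Ldha in Ldha and Ldhb RNA was lowest in normoxia KO 4, at 71.2%, and in normoxia flox 4, at 45.8%. Normoxia KO 4 and normoxia flox 4 are the libraries with neuron and astrocyte markers. The part of these markers in the 5 values was not tested.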

How the results depend on the processing

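The enzymes called under the alternatives were always higher in the first-named group of the comparison. In KO minus flox in normoxia, 5 were called with all libraries, 8 with the replicate block over all libraries, 3 with the replicate block within shared numbers, and 8 without the neuron-marker libraries; leaving out 1 library gave 5 to 8, the 8 without normoxia flox 4. In KO minus flox in hypoxia, 7 were called and the alternatives gave 6 to 9. Between oxygen levels in KO, 0 were called and 1 without the neuron-marker libraries. Between oxygen levels in flox, 1 was called, 2 by DESeq2, by limma on RPKM and with the replicate block over all libraries, 3 without the neuron-marker libraries, and 0 with only the groups compared or with the replicate block within shared numbers, where equal numbers did not deviate together; leaving out 1 library gave 1 to 2, the 2 without normoxia flox 4. The interaction gave 0 throughout. The causes were not tested, and the share of all genes called was not recorded for the alternatives. Of 2779 values of single genes under alternatives, 97 lost and 46 gained a call. The sign changed in 100, of which 1 passed the threshold: Ldhb in KO minus flox in normoxia was at 0.41 without the neuron-marker libraries, against -0.33 with all. With equal numbers as a block within flox, the oxygen calls of Slc16a1 (adjusted p = 0.439) and Pdk1 (adjusted p = 0.671) were also lost. The 63 isoenzyme share values kept their side of the threshold, but most came from fits that left out libraries. Fewer libraries raise the smallest possible p, so passing after adjustment was nearly or fully out of reach there. These values therefore do not show that the share results are stable. Depth limits Hk2 (3 to 44 reads per library). The interaction has no fit within 2 groups, so only-the-groups-compared was not run for it.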
